A study of Drosophila melanogaster with 2 samples.

Results

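Lola-J-GFP bound 700 positions that lie in later introns only, out of 6154 mapped in Drosophila melanogaster embryos by chromatin immunoprecipitation and sequencing (ChIP-seq). The embryos belonged to the strain lola-J-GFP, a transgenic line that stably makes the J isoform of Lola with GFP fused to its C terminus, and the protein was precipitated with an antibody against GFP. They were whole animals 0 to 12 h old with males and females pooled, and they formed 1 group of 2 biological replicates, numbered 1 and 3. In whole embryos a weak peak in all cells and a strong peak in few cells cannot be told apart. The 6154 positions are the summits of the authors' IDR-thresholded peaks (IDR, the irreproducible discovery rate, cuts a ranked list at the point where the ranking stops holding from replicate to replicate). A summit was kept when it lay over 500 bp from every transcription start site (TSS) of a protein-coding transcript, outside every exon of a protein-coding gene, inside an intron of a coding transcript and in the first intron of none. The 700 summits that met this rule made up 11.4% of all (Wilson 95% interval 10.6 to 12.2%, counting error only). Among the 6154 strongest peaks of each replicate's own list, 677 (11%) met it in replicate 1 and 750 (12.2%) in replicate 3. The other summits fell at promoters (2488), in first introns (1482), outside coding genes (1413) and in exons (71).

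The lola locus (longitudinals lacking) gives rise to many splice forms that share a BTB domain, through which the proteins pair with one another, and end in different zinc fingers, which read the DNA. Its loss disturbs the routes of axons and the fate of neurons and germ cells. Introns are removed from the transcript, but their DNA often holds enhancers, and in long Drosophila genes they also hold further start sites of the host and whole smaller genes. The first intron lies next to the promoter and is often the longest, while later introns are reached only after at least 1 internal exon.

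Windows reaching 50 bp to each side of the strongest summits show the A/T-rich DNA that marks these summits. Those of the 5 strongest are given on the plus strand of dm6, with the longest unbroken run of A and T in capitals. They lie in CG11050 (chr2L:6612657-6612757), Trl (chr3L:14759471-14759571), Kdm2 (chr3R:9057487-9057587), Alh (chr3R:7108985-7109085) and CG1677 (chrX:7307164-7307264). The sequences were read from the RefSeq copy of the same assembly.
CG11050: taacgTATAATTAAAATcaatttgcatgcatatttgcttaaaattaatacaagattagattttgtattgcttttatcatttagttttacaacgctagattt
Trl: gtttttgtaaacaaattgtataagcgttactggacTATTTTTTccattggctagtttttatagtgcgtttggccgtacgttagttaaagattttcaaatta
Kdm2: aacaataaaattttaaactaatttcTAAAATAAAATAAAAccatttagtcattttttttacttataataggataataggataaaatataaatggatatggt
Alh: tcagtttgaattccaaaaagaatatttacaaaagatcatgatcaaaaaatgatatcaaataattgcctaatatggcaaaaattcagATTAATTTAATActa
CG1677: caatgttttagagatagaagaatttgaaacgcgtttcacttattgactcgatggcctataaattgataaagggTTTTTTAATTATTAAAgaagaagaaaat

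Other windows carry a named motif or sit side by side. Members are shown with GAGAG, which GAGA factor binds, TATCGAT, the greater part of the site of the promoter factor DREF, and CAGGTA, the core of the site of the early-embryo factor Zelda. The motif is in capitals, on whichever strand holds it. They lie in Raf (chrX:2297680-2297780), Antp (chr3R:6903380-6903480) and pb (chr3R:6723945-6724045), the strongest members with each motif, except that a stronger CAGGTA member in arr is not shown. The last pair lay 199 bp apart in N, which encodes the Notch receptor (chrX:3162495-3162595 and chrX:3162694-3162794), the smallest gap between members and also found in bowl, kirre, sowah and CG42747, with the longest A/T run in capitals. The stronger summit of that pair had 72.3% A/T and a signal of 1237, and the weaker one had 46.5% A/T and a signal of 195.9.
Raf: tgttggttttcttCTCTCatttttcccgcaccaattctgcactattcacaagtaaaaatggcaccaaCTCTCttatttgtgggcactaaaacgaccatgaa
Antp: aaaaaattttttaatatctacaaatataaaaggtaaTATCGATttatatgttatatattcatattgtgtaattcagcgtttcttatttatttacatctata
pb: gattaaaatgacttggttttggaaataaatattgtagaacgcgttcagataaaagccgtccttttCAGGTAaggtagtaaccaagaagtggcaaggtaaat
N, stronger: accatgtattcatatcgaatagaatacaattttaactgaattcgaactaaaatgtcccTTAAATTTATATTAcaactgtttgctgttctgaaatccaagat
N, weaker: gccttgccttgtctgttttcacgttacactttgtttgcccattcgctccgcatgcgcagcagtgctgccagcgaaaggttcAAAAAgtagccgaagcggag

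The 4 strongest members lay in CG11050, Trl, Kdm2 and Alh. The strongest was in intron 2 of CG11050, an intron of only 140 bp, with a signal of 3267 on the authors' scale and rank 8 among all 6154 summits. It ranked 8 in replicate 1 and 15 in replicate 3. The next lay in intron 2 of Trl, which encodes GAGA factor, a BTB protein that helps to keep promoters open, with a signal of 3148 and ranks of 15 in replicate 1 and 12 in replicate 3. Kdm2, a histone demethylase of the JmjC family, held a summit of signal 2522 in its intron 2, with ranks of 24 in replicate 1 and 62 in replicate 3. Alh, a PHD-finger protein, held one of signal 2339 in intron 5, with ranks of 48 in replicate 1 and 60 in replicate 3. These 4 were the only members among the 100 strongest summits, where promoter summits numbered 63 and first-intron summits 14.

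The other 8 of the 12 strongest lay in 6 genes. The signal was 1809 and 1510 at summits in intron 2 of CG1677, 1779 in Pli (the Pellino homologue of Toll signalling), 1696 in JIL-1 (a histone H3 kinase), 1621 in cv-2 (a secreted BMP-binding protein) and 1535 in Ptp61F (a tyrosine phosphatase). osa, which encodes a subunit of the BAP chromatin remodelling complex, held the last 2 of the 12 strongest, with signals of 1423 and 1398 at summits 3825 bp apart in the same intron. All 12 stood high in both replicates, with ranks between 8 and 324 in replicate 1 and between 12 and 241 in replicate 3. Over all 700 members the median signal was 242.2, against 265.3 in first introns, 257.6 outside coding genes, 285.3 at promoters and 268.4 over all summits. The share of members among the 1000 strongest summits was 13.1%, against 13.02% of summits outside coding genes, 16.3% of first-intron and 19.2% of promoter summits.

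Most members were found again in each replicate. For 486 members, both replicates had a peak among their 6154 strongest whose summit lay no more than 100 bp away (69.4%, Wilson 95% interval 65.9 to 72.7%), and this held for 71.3% of all IDR-thresholded summits. Replicate 3 held 608 members (86.9%) and replicate 1 held 567 (81.0%). When all 30000 peaks of each list were searched, 666 members were present in both, 22 lacked a peak in replicate 1, 12 lacked one in replicate 3 and none lacked both. The share found in both among the strongest peaks was 99.4% for the 175 members of highest signal, 93.1% for the next 175, 66.3% for the third such group and 18.9% for the 175 of lowest signal. The signals of the 666 members correlated across members with a Spearman coefficient of 0.70 and a Pearson coefficient of 0.77 on the log2 scale, a description of positions that share libraries. Over all 5704 summits found in both full lists the Spearman coefficient was 0.77 and the Pearson coefficient 0.81. Because the IDR-thresholded list was called on both replicates, part of this recovery is fixed by how the list was made.

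**Figure D1:**
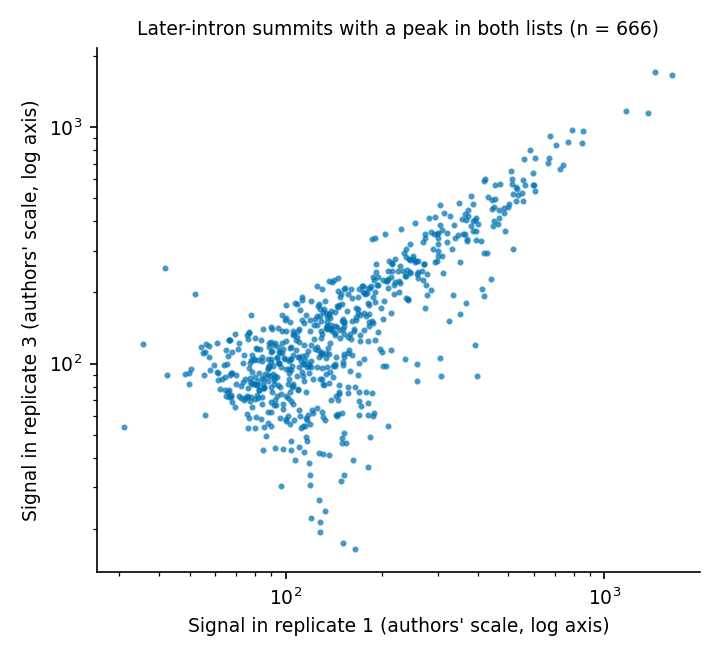
Signal of each later-intron summit in replicate 1 (horizontal log axis) and in replicate 3 (vertical log axis), on the authors' scale, for the 666 members with a peak within 100 bp in both full lists. The strongest members lie in a narrow band, while the weak ones spread widely. Some have a far lower signal in replicate 3 than in replicate 1, and others the reverse.

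Per unit of DNA, later introns held fewer summits than first introns. The DNA that meets the rule amounted to 30.1 Mb (22.5% of the 6 chromosome arms) and held 23.3 summits per Mb, with 22.5 in replicate 1 and 24.9 in replicate 3. First introns held 65.8 per Mb over 22.5 Mb, with 64.0 in replicate 1 and 66.8 in replicate 3, intergenic DNA held 35.2, promoters 162.3 and all arms together 46.0. The gap between later and first introns was far larger than the spread between replicates. It was present at every distance from the nearest coding TSS. Between 0.5 and 1 kb from a TSS the density was 49.8 per Mb in later introns and 97.7 in first introns, between 5 and 10 kb it was 30.6 in later introns and 56.7 in first introns, and beyond 20 kb it was 8.18 in later introns and 28.4 in first introns. It was also present at every intron length compared, with 32.8 per Mb in later introns and 70.3 in first introns of 5 to 20 kb.

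**Figure D2:**
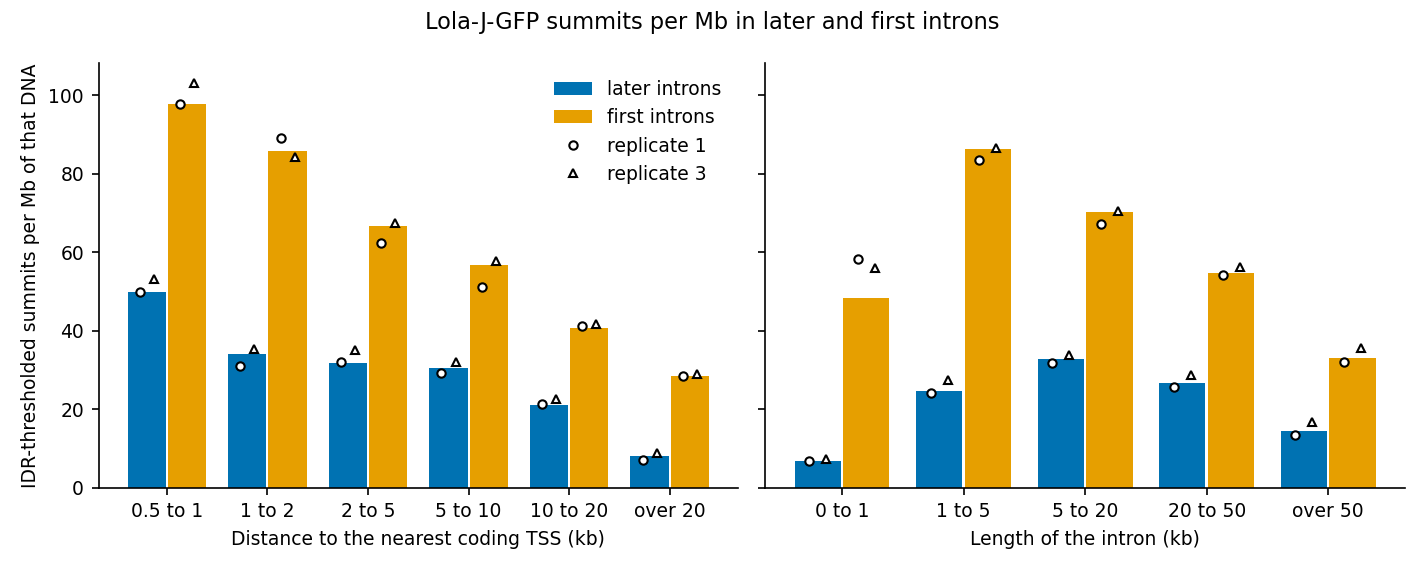
Summits per Mb of later-intron DNA (blue) and first-intron DNA (orange), by distance to the nearest coding TSS in kb (left) and by intron length in kb (right), with bars for the IDR-thresholded list and open circles and triangles for replicates 1 and 3. In every bin the later-intron bar and both of its replicate points lie below those of first introns, and beyond 20 kb from a TSS the density is 8.18 per Mb in later introns and 28.4 in first introns.

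Within later introns, the density of summits was highest in intron 2 and at middle distances from exons. Intron 2 held 439 of the 700 members at 34.1 per Mb, intron 3 held 111 at 22.5, intron 4 held 76 at 26.3, and introns 5 and beyond held 74 at 7.89 per Mb. In each replicate the density in intron 2 was over 33 per Mb and that in introns 5 and beyond under 10 per Mb. Within 100 bp of an exon only 12 members were found, at 3.51 per Mb, against 36.7 per Mb between 500 and 2000 bp and 16.5 per Mb beyond 5000 bp from one, and the CG11050 summit is among the 12. Introns shorter than 1 kb held 26 members at 6.76 per Mb, those of 5 to 20 kb held 292 at 32.8 per Mb, and those of 50 kb or more held 85 at 14.6 per Mb. The median member lay in an intron of 14092 bp, 1958 bp from the nearest exon and 5614 bp from the nearest coding TSS. When each intron was cut into 3 equal parts, the part at the 5' end held 287 members (41.0%, with 35.8% of the DNA), the middle part 235 (33.6%, with 32.7%) and the part at the 3' end 178 (25.4%, with 31.5%). The members nearest the 500 bp limit lay in MESR3, CG14434 and Cep135 at 505, 512 and 513 bp, and the summits left out nearest to it lay in NaCP60E, CenG1A and Pino at 494, 493 and 491 bp. The limit alone left out 122 later-intron summits.

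Other start sites of the host lay close to many members. For 159 members (22.7%) the nearest coding TSS belonged to the host gene and lay downstream of the summit, so that the summit was in a later intron of a long transcript and upstream of a shorter one, against 10.2% of the later-intron DNA. Of all members, 118 (16.9%) lay within 5000 bp upstream of another start of the host, a count for which the share of the DNA was not computed. The summits upstream of such a start had a median distance of 2614 bp from it and a median signal of 264.6. For 323 members (46.1%, with 46.3% of the DNA) the nearest start was the host's and lay upstream of the summit. The nearest start belonged to another gene for the remaining 218 members. Of these, 128 lay upstream of it (18.3% of members, with 22.8% of the DNA) and 90 downstream (12.9%, with 20.6%), both below their share of the DNA.

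Whole genes inside the host intron were frequent too. Of the members, 182 (26.0%, Wilson 95% interval 22.9 to 29.4%) lay in an intron that contained a complete other coding gene, with 18.6% of the later-intron DNA. Such introns held 32.6 summits per Mb (31.2 in replicate 1, 35.6 in replicate 3), and the other later introns held 21.1 (20.5 in replicate 1, 22.5 in replicate 3). In 106 members the nearest coding TSS was that of the enclosed gene, and 65 of these lay upstream of it. The rule places these members in a later intron of the host, and which gene they act on was not tested.

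The members belonged to 348 host genes, 4.5% of the 7726 coding genes with later-intron DNA. Genes with much such DNA were the more frequent hosts: a member was held by 0.22% of genes with up to 1 kb of it, 21.5% of those with 5 to 20 kb and 43.1% of those with over 50 kb. The density per Mb was 8.31 in genes with up to 1 kb, 30.8 with 1 to 5 kb and 35.0 with 5 to 20 kb. It was 26.1 in those with 20 to 50 kb and 14.3 in those with over 50 kb. Genes with over 50 kb were thus hosts most often, but their density was below that of genes with 1 to 50 kb. The median host had 14.0 kb of later-intron DNA, against 0.307 kb for all genes with any. Hosts often held summits in first introns as well, 139 of them (39.9%), against 9.62% of all genes with later-intron DNA. These shares were not matched for gene length, in which hosts and all genes differ widely. Many members shared a host: 511 of the 700 lay in the 152 genes with at least 2 members, and the 10 genes with the most held 103 (14.7%). Members were not closer together than other summits. Another summit of any class lay within 500 bp of 9.29% of members, 13.6% of first-intron summits and 15.4% of all summits. Within 2000 bp the shares were 39.0% of members, 45.9% of first-intron summits and 41.0% of all summits.

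kirre, a gene of the immunoglobulin superfamily known for myoblast fusion, held the most members. Its span on X (2740384 to 3134532, plus strand) carried 22, with 23 in the list of replicate 1 and 21 in that of replicate 3. They lay mainly in introns 3 to 5, and 10 of them in a single intron of 70622 bp. The strongest had a signal of 1393 and ranks of 240 in replicate 1 and 215 in replicate 3, and it lay 2349 bp upstream of another kirre start. The other 21 ran from 155.1 to 721.4. With 294.1 kb of later-intron DNA its density was 7.48 per 100 kb. For part of its members the nearest coding TSS was that of a gene enclosed in its introns, CG4116 for 7, rst for 2 and CG32795 for 1. Which gene these act on was not tested.

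CG1677 held 15 members in much less DNA, at 31.9 per 100 kb, with 16 in replicate 1 and 15 in replicate 3. All 15 lay in its intron 2, 1 of them also in an intron of Atg5. That intron is 73902 bp long and encloses 9 other coding genes, among them brk, the repressor of Dpp target genes, Atg5, an autophagy gene, and unc-119. The summits fell into groups beside the enclosed genes. Upstream of brk lay 5 members at 725 to 6342 bp, the nearest of them with the signal of 1809, and upstream of unc-119 lay 5 at 761 to 8226 bp, among them the one of signal 1510. A further 3 lay 1014 to 2348 bp upstream of CBP, with signals up to 1033. All 15 also lay within the long non-coding RNA gene CR44357.

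The other leading hosts showed different layouts. SKIP, which encodes a protein that binds the potassium channel Shal, held 10 members with signals of 150.3 to 715.4. Of these, 7 were spread over an intron of 102909 bp. For 6 of the 7, the nearest coding TSS was that of the enclosed gene Gld2. Ten-a, a teneurin of synaptic partner matching, held 9 with signals of 150.6 to 916.9, and 5 of them lay 1394 to 12076 bp upstream of other Ten-a starts. Raf, the kinase that activates the MAP kinase cascade, held 8 in its intron 2, and the 5 nearest its start had signals of 1091, 732.6, 656.2, 476.9 and 593.8 with 1446 to 1826 bp between neighbours. pnt, the ETS factor of EGF receptor signalling, held 8 with signals of 200.4 to 1029. hth, the homeodomain partner of Hox proteins, held 8 in introns 3 to 11, up to 86610 bp from any coding TSS. mtgo held 8 with signals of 152.6 to 506.0, and Sema1a, a transmembrane semaphorin, held 8, with signals of up to 351.8 in 7 of them and 732.9 in the other. bowl, a zinc-finger factor of the odd-skipped family, held 7 in only 7.07 kb of later-intron DNA, at 99.1 per 100 kb. Kdm2 was as dense, with 5 members in one intron of 4170 bp and 110.9 per 100 kb.

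**Figure D3:**
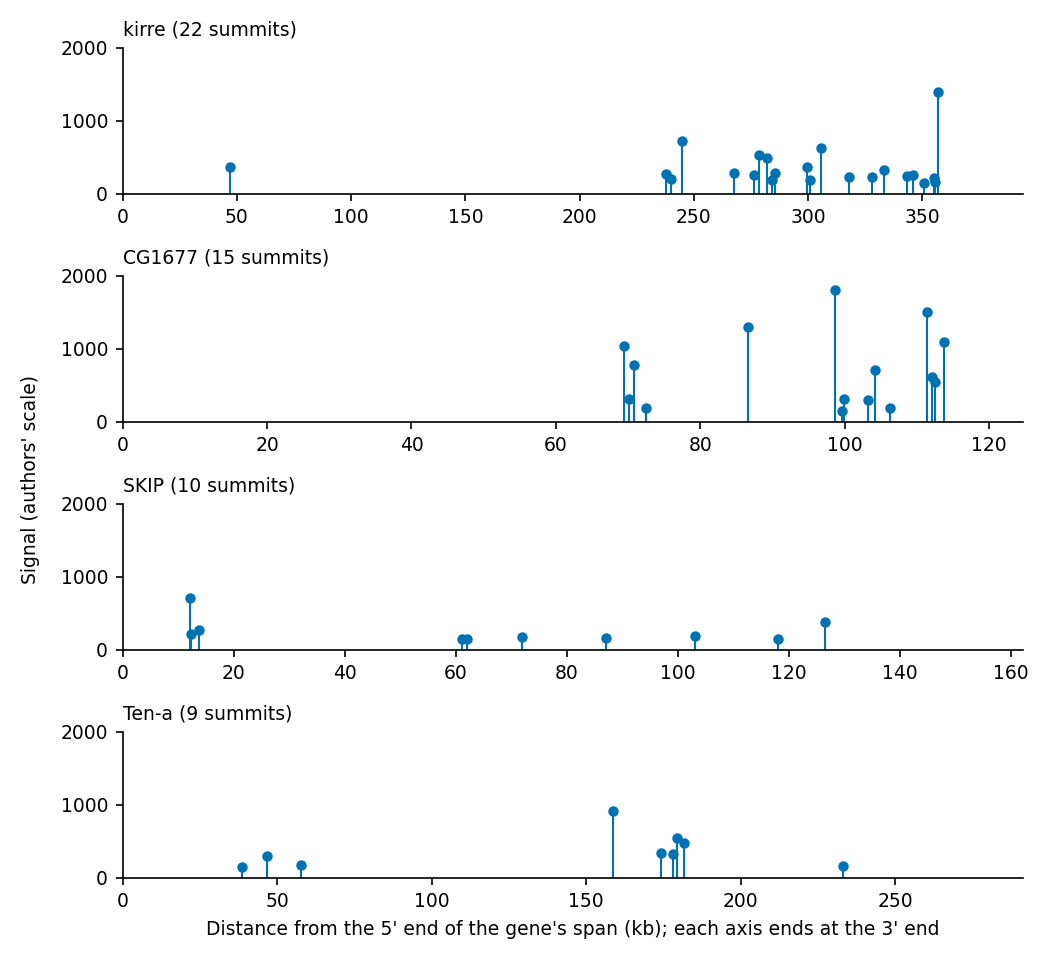
Later-intron summits along the 4 genes that hold the most, kirre, CG1677, SKIP and Ten-a, with the distance from the 5' end of the gene in kb (horizontal) and the signal on the authors' scale (vertical, from 0). In kirre the summits crowd into the 3' part of the gene with the highest at 1393, in CG1677 they form groups with peaks of 1809 and 1510, and in SKIP 3 of the 10, the highest at 715.4 among them, lie together near the 5' end and the other 7 are spread further along.

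Lists of chromatin, signalling, nuclear receptor, and BTB and zinc-finger genes held more later-intron summits per unit of DNA than all coding genes. The dpr and DIP list and the ion channel list held fewer. Over all genes with later-intron DNA the density was 23.1 per Mb, with 22.2 in replicate 1 and 24.7 in replicate 3. The lists were read against this value, since long genes gain summits by length alone. Density also varied with the amount of such DNA per gene, and the lists were not matched for that. The lists were drawn up with earlier results of these data known, so their densities are a description and no independent evidence. Of 14 lists, 8 stood above the all-gene density, and 12 stood above the share of 4.5% of genes with a member.

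Among transcription factors, nuclear receptors and ecdysone genes had members in 7 of 20 genes with such DNA, at 78.0 per Mb (88.7 in replicate 1, 60.3 in replicate 3). Eip75B held 7, but their signals reached only 302.9, and its count was 10 in replicate 1 and 4 in replicate 3. E23, an ecdysone-induced transporter, held 5 (5 in replicate 1, 2 in replicate 3), and Hr4 held 3. The list of BTB and zinc-finger regulators had members in 7 of 26 genes, at 72.5 per Mb (78.3 in each replicate). That list counted pnt, whose DNA-binding domain is an ETS domain, and without it the density was 56.3 per Mb. Most of its 25 summits lay in genes without a BTB domain, and Trl, a BTB gene also on the chromatin list, held 3. shn, the zinc-finger repressor of Dpp signalling, held 4 members with signals of 168.1, 704.2, 1132 and 1363, all of them 1171 to 3430 bp upstream of another shn start. The count in shn was 7 in replicate 1 and 4 in replicate 3, and luna held 5 weak ones of up to 267.8. Homeobox genes outside Hox had members in 8 of 38, at 39.3 per Mb (39.3 in each replicate), and 26.1 without hth, with 2 members each in acj6 and ara. Hox genes had members in 2 of 7, at 50.4 per Mb (50.4 in each replicate), from 5 summits in 99.1 kb of DNA. Of these, pb held 3 and Antp 2, and the Antp summit shown above reached 1077.

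Signalling pathway genes had members in 12 of 52, at 93.6 per Mb (91.5 in replicate 1, 102.2 in replicate 3). Besides pnt, the Wnt receptors fz and fz2 held 7 each, with signals up to 631.2 in fz and 397.6 in fz2. Chromatin regulators had the highest density, 193.2 per Mb (148.6 in replicate 1, 193.2 in replicate 3), from 13 summits in 5 of 33 genes and only 67.3 kb of DNA. Kdm2 held 5, Trl 3 and osa 2 of them, and without Kdm2 the density was 127.5 per Mb. Among genes for kinases, GTPases and cAMP signalling, 5 of 36 held a member, at 20.8 per Mb (25.9 in replicate 1, 19.0 in replicate 3, against 22.2 and 24.7 over all genes), led by msn and puc of the JNK pathway with 4 each and trio with 2.

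Adhesion and axon guidance genes stood a little above all genes. Adhesion genes had members in 8 of 28, at 36.5 per Mb (34.1 in replicate 1, 39.7 in replicate 3), but 22 of their 46 summits lay in kirre, and without it the density was 24.8. Ten-a and ed, an immunoglobulin-domain adhesion protein, followed with 9 and 6. Axon guidance genes had members in 11 of 36, at 35.9 per Mb (37.2 in replicate 1, 38.5 in replicate 3), led by Sema1a with 8, the receptor phosphatase Ptp10D with 5 and trio with 2. RNA-binding and splicing regulators had members in 8 of 28 but at 18.5 per Mb (16.4 in replicate 1, 23.6 in replicate 3), with 5 in Rbfox1, 3 in pum and 3 in fne. Muscle genes had single members in 4 of 22, at 17.4 per Mb, among them Msp300, nau and twi. Their density was 21.7 per Mb in replicate 1 and 30.4 in replicate 3, against 22.2 and 24.7 over all genes, so the side on which they stood differed between the replicates.

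The dpr and DIP genes, which encode immunoglobulin-domain proteins of synaptic partners, had 2 summits in 1092 kb of later-intron DNA, 1.83 per Mb (0.916 in replicate 1, 1.83 in replicate 3), 1 in DIP-alpha and 1 in DIP-eta. Ion channel and synaptic genes had 1 summit in 1002 kb, 0.998 per Mb (0.998 in replicate 1, 3.99 in replicate 3), in the potassium channel gene Elk. The Elk and DIP-eta summits had no peak within 100 bp in the full list of replicate 1. The replicate 1 value of the ion channel list therefore comes from another gene than Elk. Both lists lay far below the all-gene density in each replicate. Ribosomal protein genes had none in 43 genes, but with only 16.5 kb of later-intron DNA a density near that of all genes would not have been detectable.

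**Figure D4:**
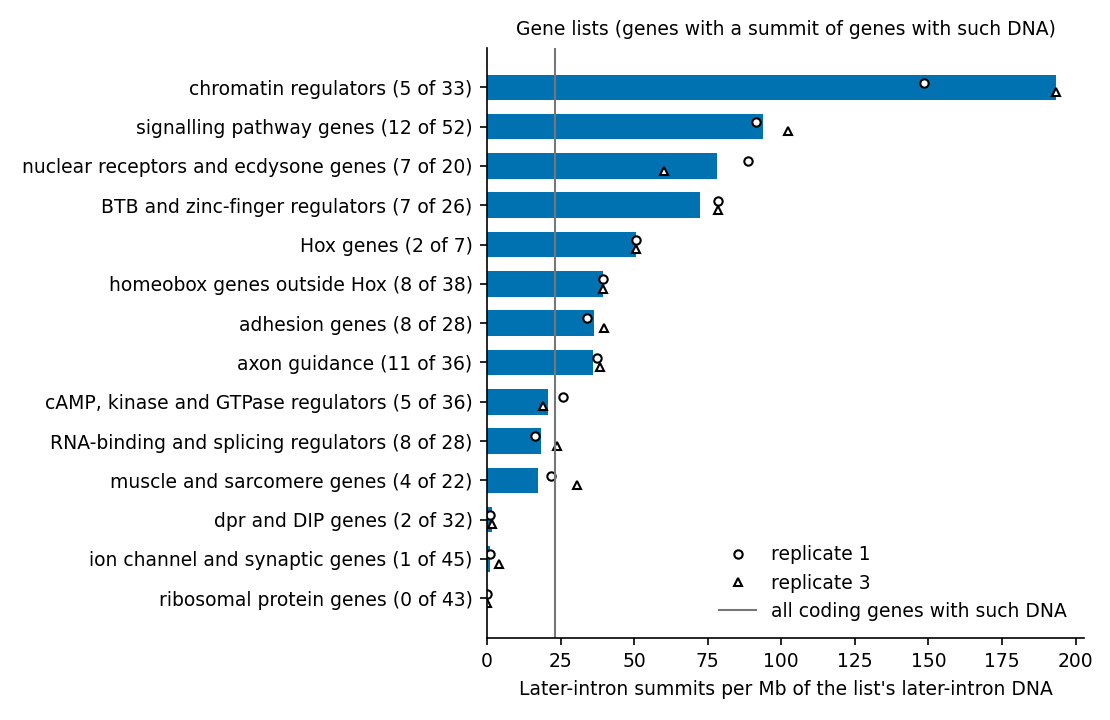
Later-intron summits per Mb of later-intron DNA for 14 gene lists (bars, from 0), with replicates 1 and 3 as open circles and triangles and the value for all coding genes with such DNA, 23.1 per Mb, as a grey line. Chromatin, signalling, nuclear receptor, and BTB and zinc-finger lists lie far to the right of the line in both replicates. The dpr and DIP list and the ion channel list lie near 0. The lists were drawn up with earlier results of these data known.

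A and T made up most of the DNA at the members. The median A/T content of the windows, 50 bp to each side of the summit, was 70.3%, with 69.3% in the list of replicate 1 and 71.3% in that of replicate 3, against 60.4% in 273246 windows tiled over all later-intron DNA that meets the rule. First-intron summits had the same median of 70.3%, and all summits 71.3%. An A/T content of at least 70% was found in 53.7% of the members' windows and 15.6% of the tiled ones. The enrichment was narrow. In the 50 bp on each side of the summit the mean was 69.6 and 69.4%, and between 150 and 350 bp away it was near 55%, below the 60.4% of later-intron DNA as a whole. Single members showed it as well, with 625 of 700 (89.3%) richer in A/T at the summit than 150 to 350 bp away. The longest run of A and T had a median of 10 bp and reached 15 bp or more in 20.7% of members, against 9.17% of tiled windows.

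**Figure D5:**
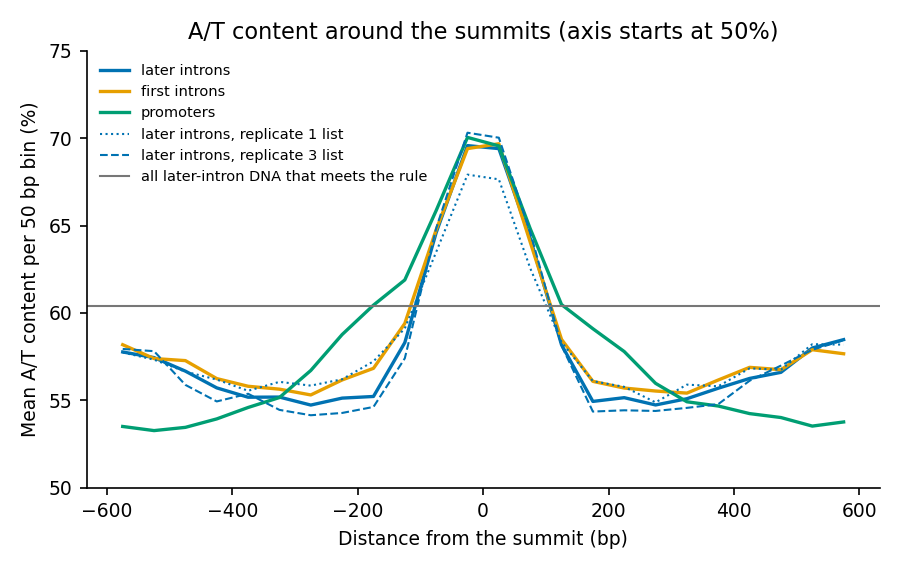
Mean A/T content in 50 bp bins (vertical axis, starting at 50%) by distance from the summit, for later-intron, first-intron and promoter summits and for the later-intron summits of each replicate's list, with all later-intron DNA as a grey line at 60.4%. The curves for later and first introns lie on each other, with a peak near 70% and flanks near 55%, while the promoter curve is broader.

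The replicates parted on the windows with less A/T. Members were grouped here by whether they had a peak among the strongest of each replicate's list, not by presence in the full lists. In the full lists only 22 members lacked a peak in replicate 1 and 12 lacked one in replicate 3. Most members found only in 1 replicate by this cut thus had a lower-ranked peak in the other. The 81 members found only in replicate 1 had a median A/T content of 62.4%. The median was 70.8% for the 122 found only in replicate 3 and 71.3% for the 486 found in both. Windows of at most 60% A/T made up 35.8% of those found only in replicate 1, 6.56% of those found only in replicate 3 and 8.44% of those found in both. Of the 81 members with at most 60% A/T, 59 ranked higher in replicate 1 than in replicate 3, against 204 of the other 619. The summit with the least A/T, 34.7% in shn, ranked 696 in replicate 1 and 4608 in replicate 3. It lay 236 bp from the shn summit of signal 1132, and whether it is a site of its own was not tested. What sets the replicates apart here was not tested.

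Most of the motifs searched had shares in the members' windows close to those in tiled DNA of the same A/T content. Letters were searched on both strands, and shares in tiled later-intron DNA were also weighted to the A/T content of the members. GAGAG was present in 58 members' windows (8.29%, Wilson 95% interval 6.46 to 10.6%), with 9.60% in replicate 1 and 7.20% in replicate 3, against 11.4% of tiled windows and 7.20% after weighting. CACACA was present in 6.0%, against 9.16% of tiled windows and 5.91% after weighting. GCCAT was present in 12.1%, against 19.3% of tiled windows and 12.1% after weighting, and CANNTG, the E-box, in 31.3%, against 38.4% and, weighted, 30.3%. TAATTA, the core of many homeodomain sites, was present in 10.7%, against 7.34% of tiled windows and 12.8% after weighting, and AAAAAA in 30.6%, against 21.4% and, weighted, 33.6%. CAGGTA was present in 15 windows (2.14%), against 1.95% of tiled windows and 1.56% after weighting. TATCGAT was present in 8 windows (1.14%, interval 0.58 to 2.24%), against 1.19% of tiled windows and 1.41% after weighting, and in 5.75% of promoter windows (interval 4.90 to 6.73%).

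Among 6-mers counted on both strands and present in at least 5% of members' windows, the 8 with the highest ratio to tiled DNA stood at 2.61 to 2.22 times the tiled share, and at 1.21 to 1.79 times it after weighting. The highest ratio belonged to TTATAA, which was present in 15.4% of them (13.4% in replicate 1, 15.5% in replicate 3), against 5.92% of tiled windows and 12.3% after weighting. AAGATA, which holds a GATA core, was present in 14.4% (10.8% in replicate 1, 14.0% in replicate 3), against 6.13% of tiled windows and 9.62% after weighting, and in 8.80% of promoter windows. ACCTAT was present in 5.71% (5.17% in replicate 1, 5.47% in replicate 3), against 2.48% of tiled windows and 3.20% after weighting. Of the windows shown above, that of Kdm2 holds TTATAA, while those of CG11050 and CG1677 near brk hold none of the 8.

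Few members lay in repeats, and a minority in non-coding genes. Annotated transposable elements held 3 members (0.43%) and cover 8.39% of the later-intron DNA. How reads from repeats were treated during alignment is unknown, and whether this low share reflects binding was not tested. The densities per Mb count the bases of these elements too. Non-coding RNA genes held 60 members (8.57%), with 2.61% of the later-intron DNA. Of these 60, 15 were the CG1677 summits in CR44357 and 7 lay in iab8 of the bithorax complex. By arm, X held 188 members at 36.9 per Mb (34.0 in replicate 1, 39.3 in replicate 3), against 17.6 to 27.0 on the other 4 large arms, and kirre, CG1677, Ten-a and Raf all lie on X. For first-intron summits the same values were 69.6 on X and 62.2 to 67.1 on those arms. Chromosome 4 held 1 member, in sv, a Pax gene.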

How the data were processed

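ChIP-seq peak lists on dm6 were used as deposited: a list of 30000 peaks per replicate, a pooled list and the IDR-thresholded list of 6154, which per the submitters' file records were called with a control alignment. The aligner, peak caller and versions are not given in the sources used here; read depth is unknown. The signal value deposited by the authors has no stated scale and only ranked and described peaks within a list. The −log10 q value deposited by the authors was 4.33 for every IDR-thresholded peak and ranked nothing. The summit is the interval start plus the offset deposited by the authors, printed counting from 1.

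Gene models were Ensembl release 115 (BDGP6.54), and sequence came from the RefSeq copy of the same assembly. Intron number is the lowest over coding transcripts, and a member counts for each coding gene in whose later intron it lies (15 members had 2 hosts). Densities divide summits by every base that meets the rule. Background windows of the same size as the members' windows (the summit and 50 bp to each side) tile all such DNA without overlap, and nearest starts were taken from every 10th window. Replicates were read from their 6154 strongest peaks. With 1 group there was no contrast and no test: values are counts, shares with Wilson 95% intervals, and medians, with the replicates as the spread. Class assignment was checked on simulated gene models. Members, gene lists, motifs and the rule for named genes were chosen with earlier results of these data known. Named are hosts of the 12 strongest members, the 10 genes with most members and up to 3 genes per list. Hosts of the strongest member with each motif and introns with the most members are named too. Other genes named (brk, unc-119, CBP, Atg5, CG4116, rst, CG32795, Gld2, N, Elk, sv and the hosts at the 500 bp limit) were chosen after their values were seen. Of the listed symbols, 4 had no match and were not analysed here. Python 3.11.15, numpy 2.4.6, pandas 2.3.3, scipy 1.17.1 and matplotlib 3.10.9 were used.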

Additional observations from a re-analysis of the deposited data

How the results depend on the processing

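No paired analysis was possible because the samples formed 1 group. The share of summits in later introns was 12.5% with a TSS limit of 250 bp, 10.4% with 1000 bp and 10.3% among the 3077 strongest peaks, and it ran from 11 to 12.2% when either replicate was left out. Density was 25.2 per Mb with the 250 bp limit, and among the 3077 strongest peaks, a shorter list by construction, it was 10.5 per Mb with 209 host genes. Recovery in both replicates was 55.9% within 50 bp and 95.1% in the full lists, and 81.0 to 86.9% when 1 replicate was left out, which asks for 1 list only. Median A/T was 67.4% in windows of 100 bp to each side and 72.3% among the 3077 strongest peaks. GAGAG was present in 4.0% of windows of 25 bp to each side, 20.3% of those of 100 bp to each side and 5.70% of the strongest peaks. Chosen after seeing the data, the ratio of later-intron to first-intron density was 0.354, 0.324 among the strongest peaks and 0.373 without replicate 1. Of the values under an alternative, 98 stayed within the spread between replicates or the interval and 19 did not. Many of the 98 were shares in small gene lists with wide intervals, such as BTB and zinc-finger regulators (13.7 to 46.1%). Values without 1 replicate are those of the other replicate, so the spread between replicates is no independent yardstick for them. The count is therefore no measure of how stable the results are. The unknown read depth limits statements on weak and absent summits.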
